A study of Mus musculus with 27 samples.

Results

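The regions described here are those of 5 imprinted genes, H19, Igf2, Dlk1, Meg3 and Rasgrf1, whose parental control regions are known to carry methylation on the copy inherited from the father. A region was the GRCm38 span of the gene with 10 kb on either side, and with 35 kb on either side for Rasgrf1, whose control region is known to lie well upstream of the gene. A position is 1 cytosine of a CpG dinucleotide on 1 strand. It was a member when it was listed in at least 2 of the 3 samples of every strain, which held for 782 positions of the 1951628 that passed the same rule across the nuclear genome. H19 (chromosome 7, 142575530 to 142578146, a long noncoding RNA) contributed 32 of the 110 positions listed there in any sample. Igf2 (chromosome 7, 142650768 to 142666816) contributed 333 of 491, Dlk1 (chromosome 12, 109452485 to 109463336) 159 of 260, Meg3 (chromosome 12, 109540996 to 109571729, a long noncoding RNA) 81 of 172, and Rasgrf1 (chromosome 9, 89909508 to 90026979) 177 of 512.

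Methylation was read in hepatocytes from the liver of 27 female mice aged 12 weeks, 3 biological replicates of each of 9 inbred strains. CAST/EiJ, WSB/EiJ and PWK/PhJ derive from wild mice, and C57BL/6J, NZO/HlLtJ, A/J, NOD/ShiLtJ, DBA/2J and 129S1/SvImJ are laboratory strains. No transgene, allele or treatment is given for any of them, and none served as a control. The assay, reduced representation bisulfite sequencing, reads the CpG-rich ends of fragments cut by the enzyme MspI, and the study set out to relate genetic differences between strains to epigenetic variation. Each sample listed between 2904787 and 3156965 positions with a percent methylation and no read count, so the depth behind a value is unknown and only the spread between samples measures its error. The files hold methylation alone, so the hepatocyte label was not set against marker expression. The mitochondrial chromosome is named differently in the C57BL/6J files than in the rest, and any difference in processing behind that cannot be told apart from the strain.

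Imprinted genes are expressed from 1 parental copy, and the choice is set in the germ line by methylation of a control region on the copy from the mother or from the father. H19 and Meg3 are noncoding RNAs of the maternal copy. Igf2, a growth factor, Dlk1, a transmembrane protein related to Notch ligands, and Rasgrf1, an exchange factor that activates Ras, are expressed mainly from the paternal copy. H19 and Igf2 share a control region upstream of H19 that binds the insulator protein CTCF on the unmethylated copy, and the Dlk1 and Meg3 cluster is controlled from a region between the genes, outside both windows used here. A mouse of an inbred strain carries the same sequence on both copies, so these data give the mean over the copies and not the level of each. A region methylated on only 1 copy is read at an intermediate level.

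The contrast between a promoter read at such a level and one read as almost unmethylated is shown by the only promoter sequences of these genes in which more than 3 positions passed the rule. Both come from RefSeq on GRCm38.p6, run 5′ to 3′ on the strand of the gene from 250 bases before to 50 bases after the annotated start, and have in capitals the CpGs at which a position was read. The first is Meg3, chr12:109540746-109541045 on the plus strand, with 6 of its 13 CpGs read, and the second an inner promoter of Igf2, chr7:142658755-142659054 on the minus strand, with 8 of its 24 CpGs read.
Meg3: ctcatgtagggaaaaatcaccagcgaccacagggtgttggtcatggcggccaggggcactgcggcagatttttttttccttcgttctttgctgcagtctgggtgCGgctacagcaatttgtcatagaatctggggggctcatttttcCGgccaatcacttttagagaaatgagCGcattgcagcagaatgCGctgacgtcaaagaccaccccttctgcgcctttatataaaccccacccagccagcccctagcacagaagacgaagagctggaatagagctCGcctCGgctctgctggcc
Igf2: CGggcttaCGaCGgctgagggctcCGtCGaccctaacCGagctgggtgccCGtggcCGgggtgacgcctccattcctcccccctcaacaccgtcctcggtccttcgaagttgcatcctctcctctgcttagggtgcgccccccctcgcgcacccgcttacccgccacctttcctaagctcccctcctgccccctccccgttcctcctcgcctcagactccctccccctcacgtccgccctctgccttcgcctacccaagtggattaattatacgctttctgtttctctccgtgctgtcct

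Over the 9 positions of the Meg3 promoter the level was 43.6%, the mean of the strain means, and the single positions lay between 38.7 and 48.5%. By strain it was 25.1% ± 4.08 (SD, n = 3) in C57BL/6J, 34.5% ± 6.10 in PWK/PhJ, 39.4% ± 6.47 in NZO/HlLtJ and from 47.4 to 51.1% in the remaining 6. The C57BL/6J samples read 22.4, 23.2 and 29.8%, and of the 24 other samples, which lay between 28.5 and 61.9%, 1 was below the highest of these. The inner Igf2 promoter stood at 7.15% over 15 positions, with strain means from 4.90% in C57BL/6J to 10.2% in PWK/PhJ. A single position, 142659030, read 76.6% and the other 14 between 0 and 6.50%; without it the promoter stood at 2.81%, from 1.28% in C57BL/6J to 4.93% in PWK/PhJ. Among all 11045 promoter windows of this length with at least 5 such positions, 1.29% had a mean level of 35 to 65% and 93.3% were below 10%. Promoter levels were not tested for a difference between strains.

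Of the 782 positions, 451 (57.7%) had a mean level below 10%, 101 (12.9%) lay between 35 and 65% and 96 (12.3%) were above 90%. Over all autosomal positions under the same rule the shares were 62.1, 3.63 and 19.5%. The intermediate positions were spread unevenly: 18 of 32 at H19, 31 of 81 at Meg3, 20 of 177 at Rasgrf1, 22 of 333 at Igf2 and 10 of 159 at Dlk1. In 10 of the 101, which are 1.28% of the 782, the mean of every strain stayed between 35 and 65%. Over all autosomal positions that share was 0.143%. The plot of levels along the regions shows the intermediate positions gathered in a few short blocks.

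**Figure D1:**
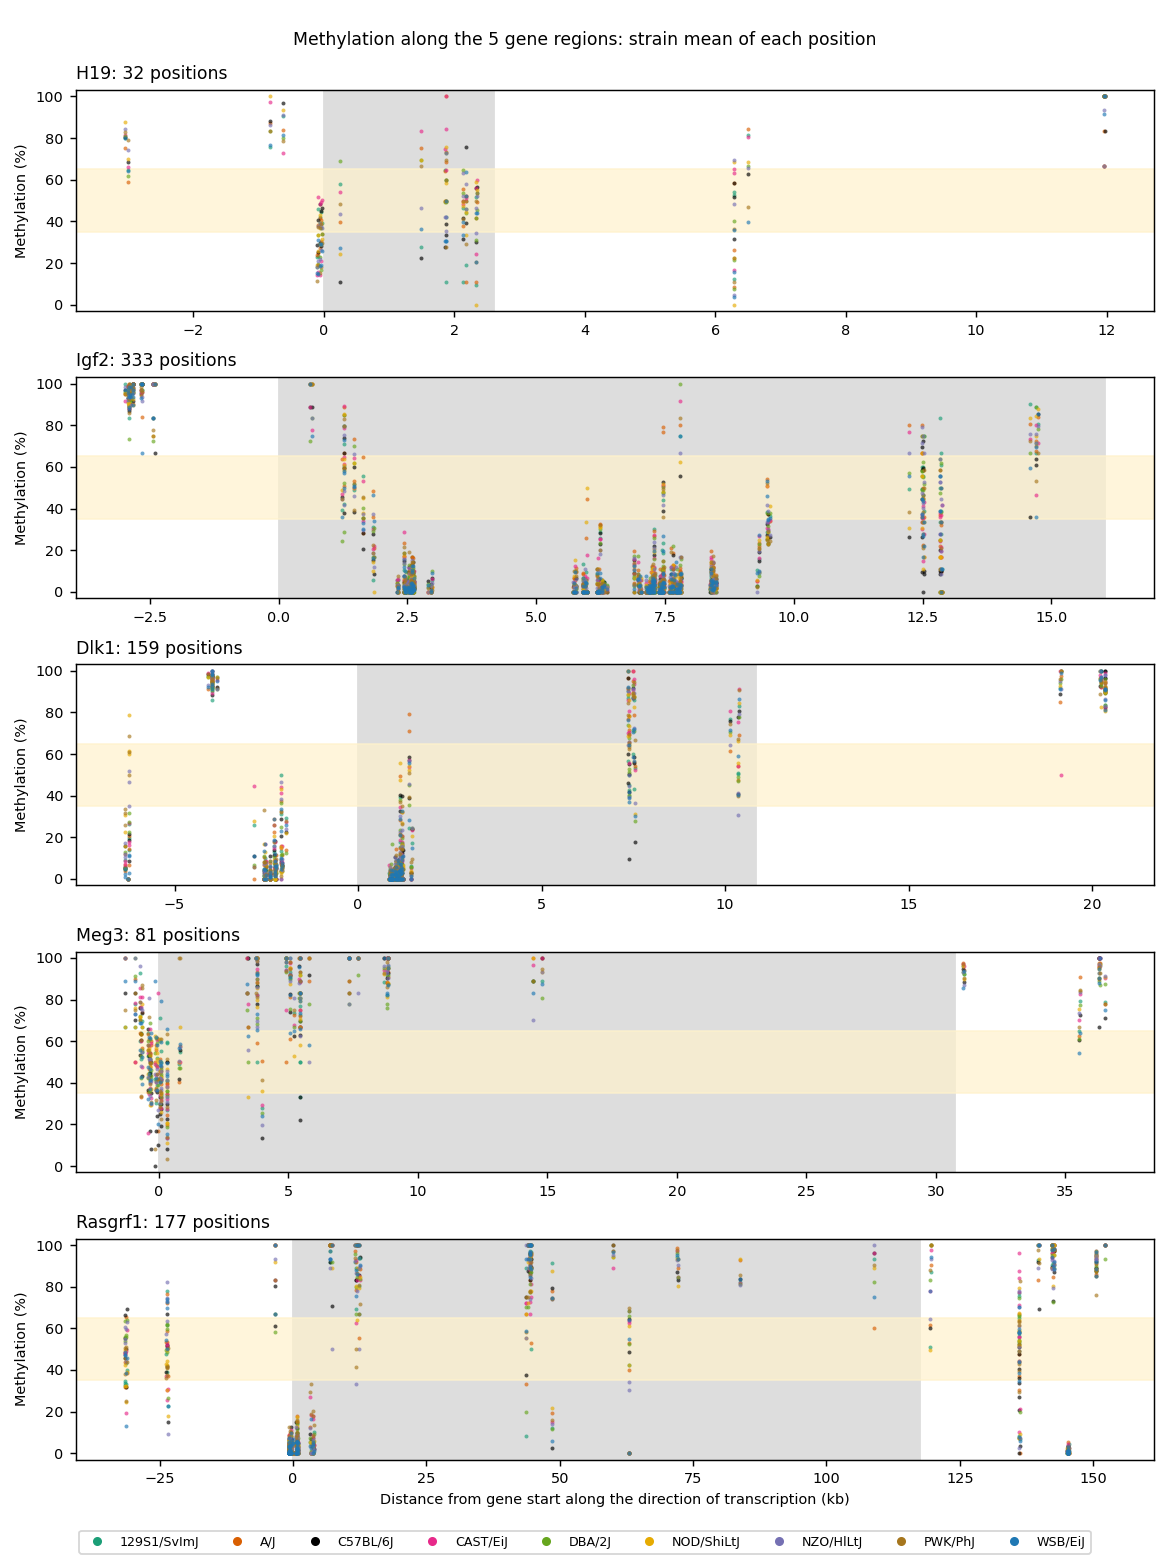
Mean methylation (%) of each strain at each of the 782 positions against the distance from the gene start in kb, with negative distances upstream, 1 panel per gene. The grey band is the gene, the yellow band marks 35 to 65%. Intermediate values gather in the body of H19, around the start of Meg3, inside Igf2 and, at Rasgrf1, mainly in 3 blocks outside its body.

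For the extent of intermediate methylation, a stretch was a run of at least 10 successive positions, neighbours at most 2 kb apart, whose running median over 5 positions lay between 35 and 65%. This rule, which fixes the level near the middle, found 683 stretches on the autosomes with a median length of 252 bp. The windows held 3 of them, at H19, Igf2 and Meg3. None was found at Dlk1 or Rasgrf1. Strain differences were tested for each stretch with the moderated F test of limma over the 9 strains, adjusted over all 683, and a stretch was called at an adjusted p under 0.05 with strain means at least 10 points apart. Of all stretches, 84.6% were called, against 1 of the 3 here. Among the 154 stretches in which every strain mean stayed between 35 and 65%, which holds for H19 and Meg3, 55.8% were called. The highest and lowest strains named below for a stretch or block were picked from the same values. That their samples do not overlap is therefore no separate test.

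At Meg3 the stretch ran for 1510 bp over 33 positions, from 109540297 to 109541806, across the gene start. The replicates were 51.6, 50.9 and 41.7% in 129S1/SvImJ, 45.1, 46.1 and 47.7% in A/J, and 40.8, 33.5 and 34.2% in C57BL/6J. They were 44.9, 42.1 and 47.1% in CAST/EiJ, 53.4, 47.7 and 37.9% in DBA/2J, and 46.0, 37.7 and 52.3% in NOD/ShiLtJ. They were 44.9, 43.3 and 47.1% in NZO/HlLtJ, 50, 37.8 and 51.4% in PWK/PhJ, and 54.5, 49.0 and 46.1% in WSB/EiJ. WSB/EiJ was highest at 49.8% ± 4.24 (SD, n = 3) and C57BL/6J lowest at 36.2% ± 4.04, and these groups did not overlap, but samples of other strains reached down into the C57BL/6J range. The difference among strains did not pass the test (moderated F test, adjusted p = 0.244, from 0.0864 to 0.941 over the other settings tried).

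Around the Meg3 start the level fell along the direction of transcription. It was 68.0% over 8 positions 501 to 1000 bp upstream, 46.2% over 16 positions in the 500 bp before the start and 38.2% over 12 positions in the first 500 bp of the gene. The last pair of positions in the stretch, 781 and 810 bp past the start, read 57.4%, but their samples ran from 0 to 100% within CAST/EiJ and within NOD/ShiLtJ, and no order of strains is read from them. From 3.4 kb past the start to the end of the gene the clusters stood between 76.8 and 95%.

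Applied to each strain's own means, the same rule found a stretch at the Meg3 start in 9 of 9 strains. Its length was 351 bp in PWK/PhJ and 371 bp in C57BL/6J, where it ended ahead of the gene start (at 109540669 and 109540645), and 1002 bp in DBA/2J. The values of 1488 bp in NZO/HlLtJ, 1511 bp in WSB/EiJ and 1532 bp in 129S1/SvImJ all end at the widely scattered last pair; up to the position before it these stretches span 998, 1021 and 1042 bp, and that of the mean 1020 bp. At H19 it was found in 5 of 9 strains, 480 bp long in DBA/2J and 1936 to 2410 bp in the other 4, each of which spans 1242 bp without a position, and at Igf2 in 3 of 9, 371 to 640 bp long. At Dlk1 a strain's own mean gave a stretch in 129S1/SvImJ (175 bp) and C57BL/6J (189 bp). Extents were not tested, and a missing stretch says only that no run of 10 positions met the limits.

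**Figure D2:**
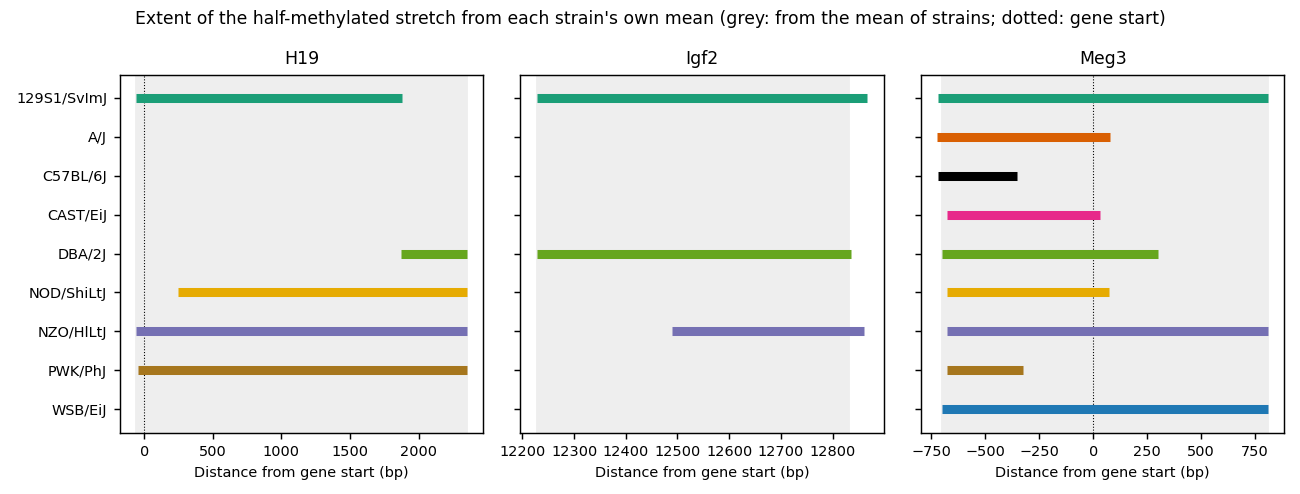
Extent of the intermediate stretch at H19, Igf2 and Meg3 by distance from the gene start in bp, drawn from the mean of each strain (coloured bars, 1 row per strain) and from the mean of the 9 strains (grey). All 9 strains have a bar at Meg3, 5 at H19 and 3 at Igf2; a row without a bar had no run of 10 positions. Bars also cover steps without a position, of up to 1242 bp at H19 and 461 bp at Meg3.

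The H19 stretch was 2410 bp long with 17 positions, from 142575795 to 142578204, and ran from inside the gene to beyond its start. No position that passed the rule lies in the 1242 bp between 142576656 and 142577898, so the stretch was not read there. By strain it read 36.1, 38.9 and 41.3% in 129S1/SvImJ, 44.6, 39.8 and 59.1% in A/J, and 34.1, 47.1 and 39.1% in C57BL/6J. CAST/EiJ read 54.0, 60.9 and 52.7%, DBA/2J 45.1, 54.2 and 45.7%, and NOD/ShiLtJ 43.4, 40.5 and 50%. NZO/HlLtJ read 43.7, 50.5 and 42.5%, PWK/PhJ 49.9, 43.9 and 35.4%, and WSB/EiJ 31.6, 31.2 and 44.0%. The highest strain, CAST/EiJ (55.9% ± 4.44, SD, n = 3), lay above WSB/EiJ (35.6% ± 7.23) in every sample, and the difference among strains passed the test (moderated F test, adjusted p = 0.0291). The call was lost without CAST/EiJ replicate 1 or 4 or WSB/EiJ replicate 2 or 3 (adjusted p from 0.0526 to 0.0990), and with only positions listed in all 27 samples (adjusted p = 0.240). It was also lost without CAST/EiJ and PWK/PhJ, at a range of 12.7 points (adjusted p = 0.168), and with stretches of at least 5 positions (adjusted p = 0.0509).

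The stretch joins a block of 12 positions in the body of H19, at 47.7%, to part of a block of 9 positions around the start, at 31.7%, which reaches past its end. Neither differed among strains beyond the threshold when tested alone (adjusted p = 0.120 and 0.631). Upstream of H19, 4 positions passed the rule. Its control region is known to lie upstream, but which of these positions fall in it was not settled. A pair 622 to 830 bp before the start read 85.9% and a pair 2996 to 3042 bp before it 74.5%. Another 3 positions there, 3041 to 3241 bp before the start, were listed in the other 8 strains at means of 73.0 to 81.1% but in no CAST/EiJ sample. About 6.3 kb past the start, beyond the end of the gene, 4 positions read 41.8%, from 23.8% ± 8.28 in WSB/EiJ to 56.5% ± 7.93 in CAST/EiJ (SD, n = 3; adjusted p = 0.0680). These positions passed the threshold without 129S1/SvImJ replicate 3 (adjusted p = 0.0431), C57BL/6J replicate 2 (0.0348), DBA/2J replicate 2 (0.0482) or NZO/HlLtJ replicate 1 (0.0469).

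At the H19 start the strands of the same CpG were not read alike. At 3 CpGs with both strands listed, the forward strand, opposite to the strand of H19, averaged 39.9% and the reverse strand 22.8%. The forward strand was higher in 23 of 27 samples, and the difference ran from -10.2 to 52.9 points. Over the 8 CpGs in the H19 window with both strands listed and a mean of 25 to 75%, the median difference, without its sign, was 16.0 points, and 5 of them were beyond 11.1 points, the 90th percentile of 40282 autosomal CpGs chosen the same way. By the same choice the median was 3.64 points over 15 CpGs at Meg3, between 5.20 and 5.21 points over 15 CpGs at Igf2, 7 at Dlk1 and 7 at Rasgrf1, and 3.62 over those autosomal CpGs. Beyond 11.1 points were 2 CpGs at Igf2, 1 at Meg3, 0 at Dlk1 and 0 at Rasgrf1. At 2 CpGs so chosen inside Igf2, between 142658997 and 142659918, the forward strand averaged 28.3% and the reverse strand 58.2%. There the forward strand was higher in 3 of 27 samples. Strand differences were not tested, and CpGs this close share fragments.

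Igf2 held its intermediate stretch 12.2 to 12.8 kb inside the gene, over 604 bp and 13 positions, from 142653985 to 142654588. The lowest sample read 17.3%, the median sample 43.6% and the highest 71.2%. NZO/HlLtJ was highest at 55.5% ± 11.9 (SD, n = 3) and C57BL/6J lowest at 33.5% ± 4.52, without overlap. The spread inside a strain reached 17.9 points in NOD/ShiLtJ and in PWK/PhJ, and the strains did not differ beyond the threshold (moderated F test, adjusted p = 0.119). Without NOD/ShiLtJ replicate 1 the adjusted p was 0.0108, and with limits of 25 to 75% for a stretch it was 0.0410.

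The rest of the Igf2 region was ordered in blocks. A block of 24 positions 2.4 to 3.0 kb upstream of the outermost start read 95.5%, and 12 positions 1.2 to 1.8 kb inside the gene read 46.6%, from 40.1% ± 1.32 in C57BL/6J to 56.7% ± 6.93 in A/J (SD, n = 3; adjusted p = 0.176). The CpG-rich clusters between 2.3 and 8.5 kb inside the gene, which include the inner promoter shown above, held 54, 49, 140 and 20 positions and stood between 3.14 and 4.90%. In the cluster of 140 positions the A/J samples, at 5.59, 5.26 and 5.67%, were above all 24 others, but the strain means spanned only 2.56 points (adjusted p = 0.248). Beyond them the level rose to 26.3% over 8 positions and 37.3% over the 20 positions of the cluster that holds the stretch, and reached 72.6% at 14.6 to 14.7 kb. At 142659030, the high position of the inner promoter, the other strand of the same CpG, 142659029, was listed at 6.28%. The high position was missing in 3 samples and in none of the other 24 was it below its partner.

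Rasgrf1 had no stretch of 10 positions, but 3 clusters of at least 4 positions outside the gene body were intermediate, where a cluster is a run of positions at most 400 bp apart. Inside the gene, a run of 2 positions (89958003 to 89958105) read 45.9% and a run of 3 (89972463 to 89972534) 37.6%. Their single positions lay from 13.2 to 78.7% and from 0 to 60.3%. Clusters were taken up after the data were seen. They were tested where they held at least 4 positions and called at a range of at least 10 points. Of all 78712 clusters tested, 15.1% were called, and of the 34 in these windows 4 were.

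The first Rasgrf1 cluster, 31.2 to 31.4 kb upstream (89878077 to 89878315, 6 positions), lies in the part where the control region of the gene is known to be. Its samples ran from 22.2 to 81.1% with a median of 43.9%. DBA/2J was highest at 58.2% ± 20.2 (SD, n = 3) and 129S1/SvImJ lowest at 36.4% ± 12.1. These groups overlapped, and the strains did not differ beyond the threshold (moderated F test, adjusted p = 0.336). Farther out, 34.8 to 34.9 kb upstream, 4 positions failed the rule because they were not listed in CAST/EiJ, and 2 of them not in PWK/PhJ either. Where listed, their strain means lay between 47.8 and 76.0%.

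The second cluster, 23.4 to 23.7 kb upstream (89885782 to 89886081, 6 positions), was called different among strains (moderated F test, adjusted p = 0.0331). NZO/HlLtJ read 59.1, 60.9 and 59.8%, A/J 47.2, 62.3 and 66.3%, and WSB/EiJ 62.4, 54.2 and 55.1%. Lower values were read in NOD/ShiLtJ (34.3, 33.4 and 45.8%), CAST/EiJ (44.9, 27.9 and 41.4%) and PWK/PhJ (38.6, 42.8 and 42.8%). The means of 129S1/SvImJ, C57BL/6J and DBA/2J, from 44.3 to 51.3%, lay between these groups of strains. NZO/HlLtJ did not overlap NOD/ShiLtJ, at 59.9% ± 0.923 against 37.8% ± 6.89 (SD, n = 3). Its position nearest the gene, 89886081, ran against this order, with PWK/PhJ highest at 50.5% ± 3.77 and NZO/HlLtJ lowest at 9.11% (adjusted p = 0.450). Another 2 positions within the cluster, 89885821 and 89885822, failed the rule because they were not listed in CAST/EiJ and PWK/PhJ, which stand low; the part of this gap in the difference was not tested. The call was lost when any of 10 of the 27 samples was left out: A/J replicate 2 or 3, CAST/EiJ replicate 4, NOD/ShiLtJ replicate 1 or 2, any of the NZO/HlLtJ replicates, PWK/PhJ replicate 2 or WSB/EiJ replicate 2. The highest adjusted p over all settings tried was 0.170.

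The third, 136.0 to 136.3 kb past the start and beyond the end of the gene (90045548 to 90045817, 9 positions), read 46.7%. It lies between the end of Rasgrf1 (90026979) and the gene Ctsh (90054267 to 90076095), which also reaches into this window. To which gene this cluster belongs was not tested. In C57BL/6J the replicates were 27.7, 30.2 and 28.9%, below all 24 other samples, and CAST/EiJ was highest at 62.1% ± 5.18 (SD, n = 3). The strains did not differ beyond the threshold (adjusted p = 0.0764), with p under 0.05 when DBA/2J replicate 3 or 4 or PWK/PhJ replicate 3 was left out (0.0129 to 0.0470). At its last position, 90045817, which was called, PWK/PhJ stood wholly apart: it read 92.0, 88.9 and 66.7% and the other samples 0 to 29.4%. Around the Rasgrf1 start the level was low, with 1.97% over 46 positions just upstream and 2.91% over 26 positions just inside the gene. A cluster of 4 positions 7.0 to 7.3 kb inside the gene was the other called one (moderated F test, adjusted p = 0.00944), with NZO/HlLtJ at 85.6% ± 9.18 and 3 strains at 100% in every sample. Without NZO/HlLtJ replicate 2 the range fell under 10 points and the call was lost. It was also lost without CAST/EiJ and PWK/PhJ (adjusted p = 0.0961).

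**Figure D3:**
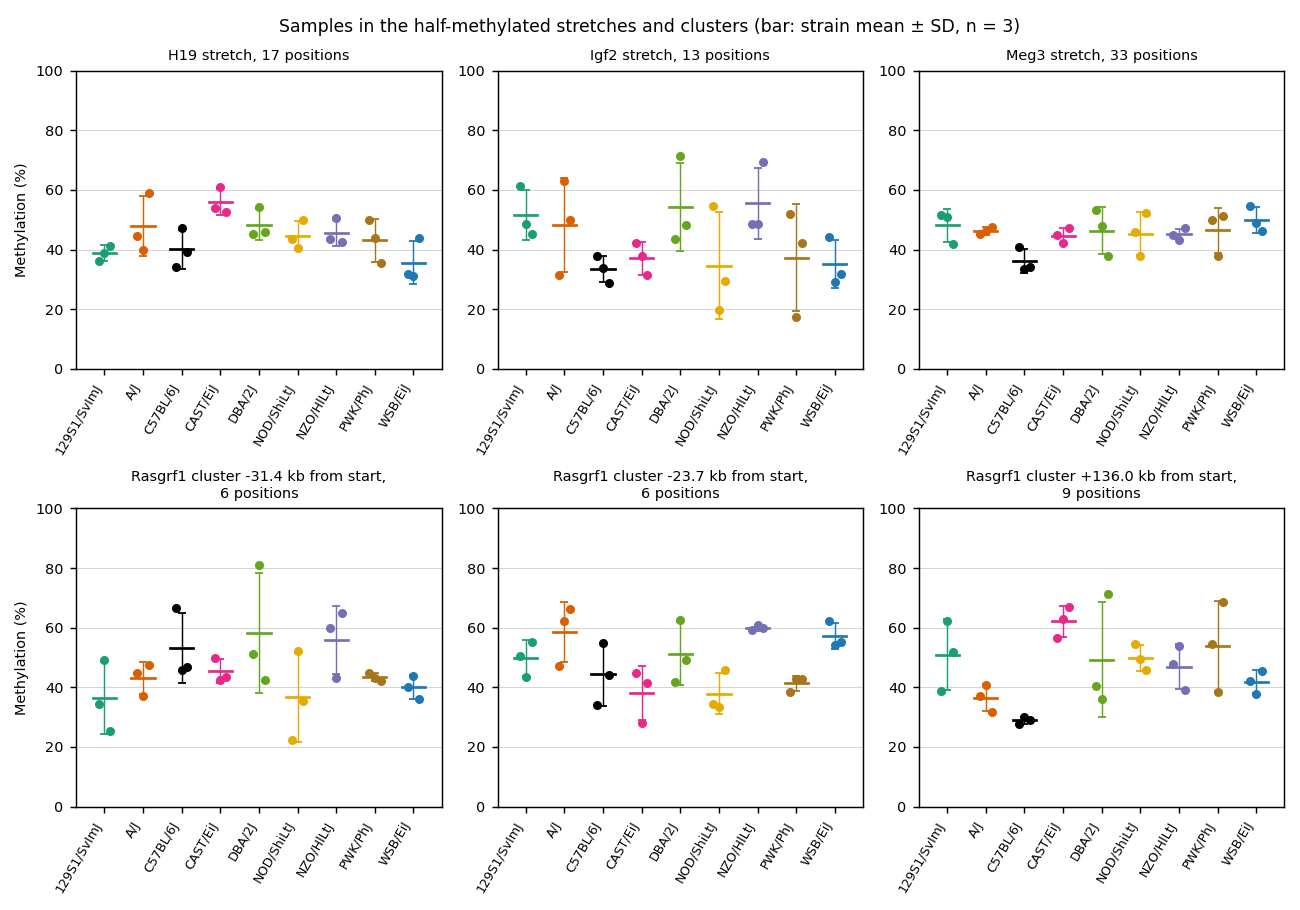
Methylation (%) of each sample in the 3 intermediate stretches and the 3 intermediate Rasgrf1 clusters, by strain. Dots are samples and bars the strain mean with its SD (n = 3); the C57BL/6J samples, in black, are lowest at Rasgrf1 136.0 kb past the start, and the CAST/EiJ samples at H19 lie above those of WSB/EiJ.

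Dlk1 held the 2 clusters whose calls kept through every setting tried. The first lies 6.2 to 6.3 kb upstream of the gene (109446143 to 109446258, 7 positions) and had the largest difference among strains relative to its spread of all clusters in these windows. Its replicates read 42.2, 39.0 and 34.7% in PWK/PhJ, 40.7, 35.7 and 39.0% in NOD/ShiLtJ, and 25.9, 16.0 and 32.4% in NZO/HlLtJ. They read 12.7, 20.7 and 13.2% in DBA/2J and 7.06, 5.22 and 2.37% in WSB/EiJ, and the samples of the other 4 strains lay between 4.85 and 14.1%. Every PWK/PhJ and NOD/ShiLtJ sample was thus above every sample of the other 7 strains. PWK/PhJ stood at 38.6% ± 3.78 and WSB/EiJ at 4.88% ± 2.36 (SD, n = 3; moderated F test, adjusted p = 1.09e-06, at most 0.000237 over the other settings tried). The SD of the strain means was 12.6 points and the SD within strains 4.04 points.

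The difference was carried by most positions of that cluster but not by all. At 109446249 NOD/ShiLtJ read 82.1, 83.3 and 70.8%, above all other samples, NZO/HlLtJ 51.7% ± 2.89 and PWK/PhJ 49.7% ± 2.01 (SD, n = 3), while the other 6 strains had means from 11.7 to 27%. At 109446258 PWK/PhJ was highest at 68.6% and WSB/EiJ lowest at 2.85%. A position between these and the outer ones read 0% in every strain. Another 4 positions within the cluster failed the rule because strains that stand high were not listed there: NZO/HlLtJ at 109446241 and 109446242, and NOD/ShiLtJ and PWK/PhJ at 109446246 and 109446247. Where listed, NOD/ShiLtJ read 68.5 and 65.8% and PWK/PhJ 61.2 and 60.3% at the first pair, and NZO/HlLtJ 39.7 and 36.4% at the second, each above all other strains listed there, whose means lay between 3.70 and 28.7%. The part of these gaps in the difference was not tested.

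The second Dlk1 cluster lies 7.3 to 7.5 kb inside the gene (109459831 to 109460019, 12 positions) and read 70.3%. CAST/EiJ read 87.5, 82.2 and 76.5%, PWK/PhJ 75.9, 73.8 and 85.8%, NOD/ShiLtJ 77.3, 83.6 and 73.8%, and A/J 71.5, 83.1 and 78.7%. C57BL/6J read 58.3, 47.8 and 61.4%, 129S1/SvImJ 66.3, 56.1 and 59.0%, and WSB/EiJ 59.5, 61.7 and 63.5%. All samples of the first 4 strains were above all samples of the last 3, with DBA/2J (70.1% ± 5.43) and NZO/HlLtJ (68.6% ± 1.52) between them. The means spanned 26.2 points, from 55.8% ± 7.13 to 82.1% ± 5.49 (SD, n = 3; moderated F test, adjusted p = 0.00082, at most 0.00953 over the other settings tried). Only in C57BL/6J and 129S1/SvImJ did this place form a stretch of its own at intermediate level. Elsewhere at Dlk1, 86 positions near the start of the gene read 4.76%, 32 positions 2.0 to 2.8 kb upstream 7.92% and 8 positions 3.8 to 4.1 kb upstream 95.1%.

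**Figure D4:**
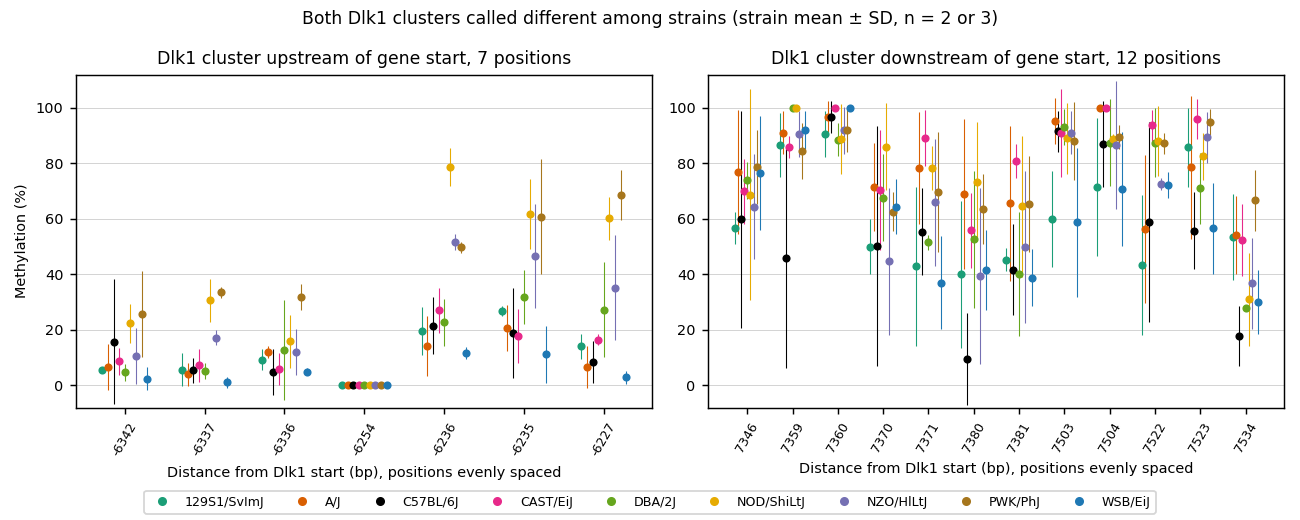
Methylation (%) of each strain, mean with SD (n = 2 or 3), at the 7 positions of the upstream Dlk1 cluster and the 12 positions of the cluster inside the gene, ordered by distance from the gene start in bp. In the upstream cluster NOD/ShiLtJ, PWK/PhJ and NZO/HlLtJ stand above the other strains at 109446249; 1 position is at 0% in all strains.

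Between the Dlk1 and Meg3 windows, where the control region of this cluster is known to lie, 49 positions passed the same listing rule. The nearest to the Meg3 window, 12.1 to 12.4 kb before the Meg3 start, were 2 positions at 80.8%, and 8 positions 14.3 kb before the start read 87.0%, from 79.2% in WSB/EiJ to 95.2% in PWK/PhJ. The 13 groups of positions in this interval ranged from 45.4% at a single position, 109495434, to 96.9%, and also held 4 positions at 61.8% (109500390 to 109500544), 2 at 49.6% (109513406 to 109513416) and 1 at 59.4% (109523754). At 109513406 to 109513416 the strain means ran from 0% in CAST/EiJ to 93.8% in NZO/HlLtJ. At 109523754 they ran from 0% in WSB/EiJ to 100% in 129S1/SvImJ, so neither place was steadily intermediate. Past the Meg3 window, 1 further intermediate stretch lay within 100 kb, 12 positions from 109608071 to 109608202 in the windows of Rtl1 and Rian. It read 50.3%, with strain means spanning 8.10 points (adjusted p = 0.665).

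Over whole windows, only H19 was called (adjusted p under 0.05, strain means at least 5 points apart), against 19.4% of all 22045 gene windows tested. Its window stood at 50.5%, from 42.9% ± 4.88 in WSB/EiJ to 58.1% ± 2.93 in CAST/EiJ (SD, n = 3; moderated F test, adjusted p = 0.0199). The call was lost without CAST/EiJ replicate 4 (adjusted p = 0.0643) and without WSB/EiJ replicate 2 (0.0599) or 3 (0.0645). It was also lost without CAST/EiJ and PWK/PhJ, at a range of 10.1 points (0.174). The Igf2 window had the smallest p of the 5 (0.000133) with a range of 3.70 points: C57BL/6J read 13.5% ± 0.510, below all 24 other samples, and A/J was highest at 17.2% ± 0.629. The Dlk1 window differed by 3.64 points (0.00741), Rasgrf1 by 3.02 points (0.0502) and Meg3 by 7.53 points (0.553). Window means mix blocks of very different level, so a small range can hide the blocks that differ.

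The share called was below that of all features for positions. For clusters it was 11.8% against 15.1%, for stretches 33.3% against 84.6%, for tiles 12.1% against 7.75% and for gene windows 20% against 19.4%. In that order these shares rest on 4, 1, 4 and 1 calls, and no difference is read from them. Of 501 positions tested, 8 (1.60%) were called at a range of at least 25 points, against 4.34% of all 868265 positions tested, and 49 had an unadjusted p under 0.05. They were 142653980 in Igf2, 4 positions of the upstream Dlk1 cluster and 3 positions of Rasgrf1, and none lay at H19 or Meg3, where 2 of 31 and 7 of 79 tested positions had an unadjusted p under 0.05. PWK/PhJ was the highest strain at 4 of the 8, of which 2 lay in the upstream Dlk1 cluster. WSB/EiJ was the lowest at 5, of which 4 lay in that same short cluster. Without PWK/PhJ replicate 1, 5 positions were called. Of 33 tiles of 1 kb with at least 5 positions, 4 (12.1%) were called, against 7.75% of 58173. They cover all or part of the upstream Dlk1 cluster (adjusted p = 6.35e-07) and the second Rasgrf1 cluster (0.00193), 7 positions of the H19 body (0.0296) and 9 positions of the Igf2 cluster that holds the stretch (0.0350). That Igf2 cluster as a whole, of 20 positions, was not called (0.164), nor was the tile with its other 11 positions (0.225). In the H19 tile CAST/EiJ stood at 71.1% ± 11.4 and C57BL/6J at 35.1% ± 11.8, and in the Igf2 tile 129S1/SvImJ at 47.5% ± 13.4 and C57BL/6J at 4.63% ± 8.02 (SD, n = 3). The next tile of the H19 body, with 5 positions, had another order, with C57BL/6J highest at 51.5%, CAST/EiJ at 48.8% and A/J lowest at 32.7%, and was not called (adjusted p = 0.452). Without the C57BL/6J samples 2 tiles were called, and without those of CAST/EiJ and PWK/PhJ 1 was.

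**Figure D5:**
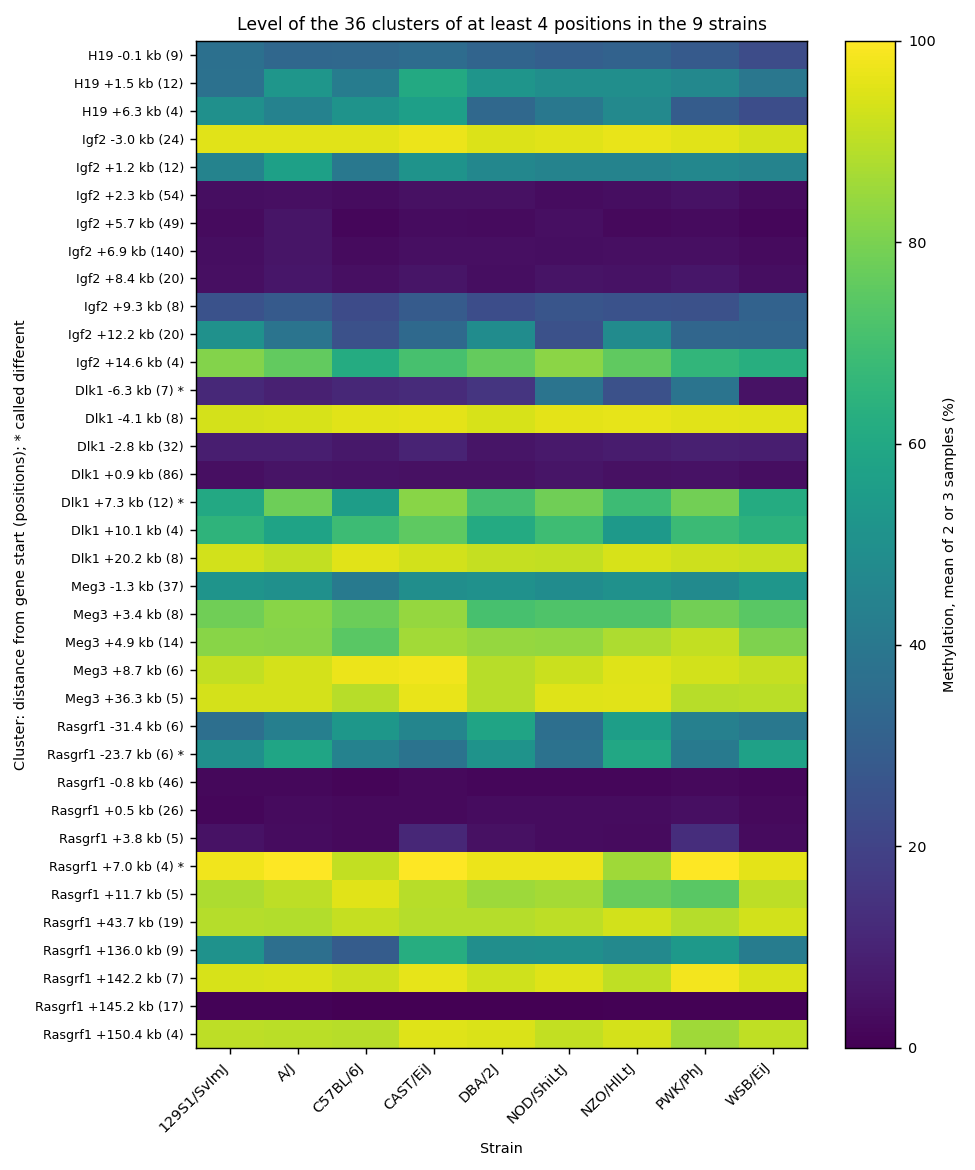
Mean methylation (%, colour scale from 0 to 100) of the 36 clusters of at least 4 positions in the 9 strains, ordered by gene and by distance from the gene start in kb, with the number of positions in parentheses. Over the 34 clusters tested, the strain means spanned a median of 11.1 points. The 4 called clusters carry an asterisk, and 2 of the 36 were left out of the test for their low mean.

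Of 19 other genes chosen as neighbours of the 5 regions, 15 windows could be tested and 4 were called (Nctc1, Begain, Wdr25 and Chrnb4). The distance of these 19 genes from the 5 was not checked, so not all need lie in the same 3 chromosomal clusters. Of the 1910 positions in the windows of the 19 genes, 6.07% were intermediate. Each position was counted once, and 78 of them were also in the 5 regions. Of 10 imprinted genes known to be methylated on the maternal copy (Plagl1, Grb10, Peg3, Peg10, Snrpn, Kcnq1ot1, Igf2r, Nnat, Mest and Zrsr1), all had at least 1 intermediate stretch. They held 18 stretches in all, of which 1, at Mest, was called. Of all stretches 84.6% were called, and 55.8% of those in which every strain mean stayed between 35 and 65%. The windows of the 19 genes above held 3 stretches, of which 2, in the windows of Begain and Wdr25, were called. In the windows of the 10 maternally methylated genes 41.4% of 1255 positions were intermediate, against the 12.9% in the 5 regions. This difference between the lists was not tested.

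Strains also differed in which positions were listed. In the Rasgrf1 window 24 positions were listed by the rule in the other 8 strains but in fewer than 2 CAST/EiJ samples, 22 of them in no CAST/EiJ sample. For PWK/PhJ the counts were 22 and 18. Another 30 positions passed the listing rule in PWK/PhJ alone, and 10 in CAST/EiJ alone. In the other 4 windows no strain lacked more than 10 positions that all other strains had. A position that failed the rule in any strain entered none of the tests, though strain means are given above for some of them, and sequence variants were not analysed here.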

How the data were processed

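Reduced representation bisulfite libraries of 27 hepatocyte samples, 3 of each of 9 strains, were analysed from 1 list of positions per sample. Per the submitters' processing notes, reads were handled with Trim Galore 0.6.3, Bowtie2 and Bismark 0.22 on GRCm38; no order or coverage filter is given in the sources used here. The authors deposited a percent methylation per position and strand, with no coverage, so depth is unknown. Of listed positions in RefSeq promoters, 99.96% lay at a CpG of the GRCm38.p6 sequence.

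Percentages were put on the scale log2((percent + 5)/(100 - percent + 5)) and compared over strains with the moderated F test of limma, Benjamini-Hochberg adjusted over all features genome-wide, for positions, 1 kb tiles, gene windows, clusters and stretches. Features with a mean near 0 or 100% were not tested, and samples missing at a position were dropped there. The test was written in Python with numpy and scipy; on 57387 tiles 0 fell on another side of the threshold than with limma 3.58.1 in R 4.3.3, and it was tested on simulated data. Named are the 5 genes, every stretch and called tile in their windows, and for each stretch its highest and lowest strain and any strain whose samples all lie beyond the other 24. The members and lists were chosen with earlier results of these data known. Clusters, strand comparisons, promoter levels, the bins around the Meg3 start and the looser listing were added after seeing the data, and other positions or clusters named were chosen after their values were seen. Gene strands are from the RefSeq promoter table; that of H19 is textbook knowledge. Replicate numbers were not used as pairs in the main fits. Over 76 same-numbered pairs the deviations from strain means correlated at 0.000801 on average, with 0 pairs over 0.1. Weak or local shared effects were not tested.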

Additional observations from a re-analysis of the deposited data

How the results depend on the processing

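Of 1698 values recomputed under the alternatives, 1640 kept direction and side of the threshold, counts moving by less than 1.5 times, 25 fell below the threshold, 11 rose past it, 22 moved and 0 reversed. The 8 called positions became 5 with the replicate block and with an offset of 1 point, 3 without CAST/EiJ and PWK/PhJ, and 5 to 11 when 1 sample was left out. The labels tie no shared mouse or batch to a replicate number, and a weak or local batch was not tested. Of the samples, 6 of 27 correlated best with their own number, where 76 pairs of samples from different strains shared a number and 248 did not. With the replicate block the cluster of Rasgrf1 23.4 to 23.7 kb upstream lost its call (adjusted p = 0.0788) and that 136.0 kb past the start gained one (0.0493). The 4 called tiles became 2 without C57BL/6J and 1 without CAST/EiJ and PWK/PhJ (3 to 5 with 1 sample left out). Without CAST/EiJ and PWK/PhJ the called windows went from 1 to 0, the called stretches from 1 to 0 and the called clusters from 4 to 2. With 1 sample left out these counts were 0 to 1, 0 to 2 and 2 to 5, with 2 clusters called without NZO/HlLtJ replicate 2. Called stretches numbered 0 with only positions listed in all 27 samples, 3 at limits of 25 to 75% and 2 at 5 positions. At 5 positions 7 stretches were found instead of 3 (2 to 3 with 1 sample left out): the added ones were 1 in Igf2 and the 3 Rasgrf1 clusters. Of these, the Rasgrf1 stretches 23.4 to 23.7 kb upstream (adjusted p = 0.00876) and 136.0 kb past the start (0.0217) were called, and H19 was not (0.0509). The power of the fits with fewer strains or fewer positions was not measured. Without CAST/EiJ and PWK/PhJ the range fell from 20.3 to 12.7 points for the H19 stretch and from 15.1 to 10.1 points for the H19 window. The cause of the changes was not tested. Clusters split at 200 bp and means adjusted for the positions listed were added after seeing the data. The depth behind single positions is unknown, and its part in their scatter was not tested. In the Igf2 cluster that holds the stretch, 37.1% of values were exactly 0 or 100 and the median position had an SD within strains of 26.3 points.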
